A study of Mus musculus with 6 samples.

Results

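The proteasome genes described here were the 40 genes whose symbols belong to the Psma, Psmb, Psmc and Psmd families or are Psme1 to Psme4, out of 33965 genes in the deposited table. The inducible catalytic subunits Psmb8, Psmb9 and Psmb10 were left out by the same rule. Of the 40, 16 encode the core particle (Psma, Psmb) and 24 encode regulatory particles (Psmc, Psmd, Psme), and 38 had enough reads to be tested. The study asked how the transcriptome of MC38 tumors changes under GB2, and the comparison here was between 3 tumors from mice given GB2 and 3 from mice given PBS. MC38 is a mouse colon carcinoma line, and the tumors were grown under the skin of C57BL/6 mice bought at 6 weeks of age. GB2 is a prodrug in which the STING agonist MSA-2 is joined to artesunate, used as a TREM2 inhibitor, by a disulfide linker that glutathione opens, and the study's MC38 experiments gave it at 10 mg/kg. PBS, phosphate-buffered saline, was the control, and both groups carried the same tumor line in the same strain with no other allele or agent named. RNA came from whole tumors, so fewer cells of a type and less RNA per cell cannot be told apart. The labels name the tumors as replicates without saying how the mice were handled, so the p-values measure only the spread between these 6 tumors.

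The 26S proteasome is the protease that degrades proteins tagged with ubiquitin. Its core particle is a barrel of stacked alpha and beta rings, with the protein-cutting sites inside on Psmb5 (chymotrypsin-like), Psmb6 (caspase-like) and Psmb7 (trypsin-like). The 19S regulatory particle caps the barrel, where Psmd subunits bind and remove ubiquitin and a ring of Psmc ATPases unfolds the substrate and opens the alpha-ring gate, while the Psme proteins form the alternative PA28 and PA200 caps. When proteasome activity falls, the transcription factor Nfe2l1 raises the subunit genes together through antioxidant response elements, and interferon gamma induces PA28 alpha and beta together with the immunoproteasome subunits.

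Promoters were read from RefSeq (GRCm38.p6), from 250 bases before to 50 bases after the annotated start, and 33 of the 40 genes had an entry, with 36 promoters among them. Each motif was searched on both strands. The antioxidant response element core, TGACNNNGC, was in 6 of the 36 promoters (16.7%, against 12.4% of all 32851 promoters in the table), those of Psmb5, Psmb6, Psmc6, Psmd9, Psmd12 and Psme4. The core of the interferon-stimulated response element (GAAA, any 2 bases, GAAA) was in 4 (11.1% against 3.44%), those of Psmb3, Psmd4, Psmd9 and Psme1. Of the general promoter elements, the ETS site CCGGAAG was in 13 (36.1% against 8.86%), the GC box GGGCGG in 22 (61.1% against 35.7%) and the CCAAT box CCAAT in 13 (36.1% against 37.4%). A match says only that these letters are in the window. The promoters printed here are those of the catalytic subunits Psmb5 and Psmb6 and the activator Psme4, each with an antioxidant response element core, and of Psme1, with an interferon-stimulated response element. They were picked from the genes with a match whose values are given in full. Psmb3, Psmd4 and Psmd9 are also such genes and are not printed. Capitals mark the matched letters. That of Psmb5 is chr14:54617946-54618245 on the minus strand, with the match 47 bases upstream of the start. The Psmb6 promoter is chr11:70525107-70525406 on the plus strand, with the match 9 bases upstream. The Psme4 promoter is chr11:30771525-30771824 on the plus strand, with a match to the opposite strand 7 bases upstream. The Psme1 promoter is chr14:55578244-55578543 on the plus strand, with an interferon-stimulated response element on the opposite strand from base 10 after the start.
Psmb5: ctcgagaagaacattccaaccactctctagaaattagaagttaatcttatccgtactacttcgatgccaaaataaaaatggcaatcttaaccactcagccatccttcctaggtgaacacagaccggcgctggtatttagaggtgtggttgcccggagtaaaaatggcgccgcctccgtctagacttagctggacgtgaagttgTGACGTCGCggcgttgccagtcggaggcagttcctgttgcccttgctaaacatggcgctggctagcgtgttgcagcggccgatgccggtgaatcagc
Psmb6: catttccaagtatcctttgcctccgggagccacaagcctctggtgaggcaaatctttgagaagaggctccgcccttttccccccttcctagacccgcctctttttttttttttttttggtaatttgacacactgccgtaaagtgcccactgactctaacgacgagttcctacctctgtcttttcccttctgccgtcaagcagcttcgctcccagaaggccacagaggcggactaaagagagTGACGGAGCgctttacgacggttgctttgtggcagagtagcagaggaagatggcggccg
Psme4: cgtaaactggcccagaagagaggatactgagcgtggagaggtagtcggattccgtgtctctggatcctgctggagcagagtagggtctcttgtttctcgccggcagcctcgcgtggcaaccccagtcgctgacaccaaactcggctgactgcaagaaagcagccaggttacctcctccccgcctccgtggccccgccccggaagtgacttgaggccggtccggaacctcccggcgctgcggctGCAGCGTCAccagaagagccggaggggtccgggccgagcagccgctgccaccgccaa
Psme1: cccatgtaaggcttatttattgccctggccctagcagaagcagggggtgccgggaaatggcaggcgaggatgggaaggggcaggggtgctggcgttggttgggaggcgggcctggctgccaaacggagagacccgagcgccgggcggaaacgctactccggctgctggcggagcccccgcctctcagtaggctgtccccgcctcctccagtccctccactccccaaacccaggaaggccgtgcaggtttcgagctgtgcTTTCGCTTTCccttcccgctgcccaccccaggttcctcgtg

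The libraries held 64764405 to 83690056 estimated counts each, and levels are given as CPM (counts scaled to a common library size) after TMM scaling, a correction for library composition whose factors ran from 0.9136 in PBS tumor 1 to 1.036. Fold changes are GB2 against PBS on the log2 scale with their standard error (SE), from edgeR's quasi-likelihood test over 19602 genes with Benjamini-Hochberg adjustment. PBS tumor 1 stood apart for the proteasome genes, and the main values are also given without it. Markers of other cells differed between the groups: 8 of 8 macrophage markers had an unadjusted edgeR p under 0.05 and were higher in GB2 tumors (summed CPM 118.59 to 208.62, against 32.84 to 51.21 in PBS tumors; no adjusted p under 0.05, and 6.94% of all genes had an unadjusted p under 0.05), as were 6 of 6 fibroblast markers (966.23 to 1332.5 against 288.99 to 519.7) and 4 of 5 endothelial markers (97.61 to 110.86 against 43.52 to 61.52). The remaining endothelial marker, Vwf, had a lower fitted value in GB2 tumors (log2 fold change -0.48, not under that limit). T cell markers summed to 1.06 to 4.31 in PBS and 1.80 to 5.19 in GB2 tumors, skeletal muscle markers (2 of 5 under that limit, both higher) to 77.14 to 136.33 and 140.14 to 182.52, and keratinocyte markers to 19.02 to 80.52 and 64.31 to 112.75. Markers of epithelium (Epcam, Krt8, Krt18, Krt19, Cdh1) were low in every tumor, with a summed CPM of 2.60 to 5.97 in PBS and 3.64 to 7.74 in GB2 tumors (Epcam, 1 of 4 tested, was under that limit and higher in GB2 tumors) and Krt19 at 0 in 3 of the 6, so the epithelial origin of the tumors was hardly visible in these genes. The part of these cell types in the proteasome values was not tested.

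No proteasome gene passed the test between GB2 and PBS tumors. None of the 38 had an adjusted p under 0.05 with at least a 2-fold change, as was so for 0% of all 19602 genes, and none had an unadjusted p under 0.05, against 6.94% of all genes (1360). The lowest adjusted p among the 38 was 0.757 by edgeR, and DESeq2 also gave 0 genes at either limit, against 1.96% (385) and 9.05% (1774) of all genes. Fitted values were lower in GB2 tumors for 32 of the 38 genes and higher for 6, where 51.7% of all genes were lower. Their median log2 fold change was -0.29 (range -0.73 to 0.21), beside -0.02 over all genes. The 95% confidence interval lay within a 2-fold change either way for 23 of the 38, so a change of that size was not covered by the interval of those genes and was covered for the other 15. Groups did not overlap for Psme3 alone, 1 of 38, against 15.3% of all genes.

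Proteasome levels were set apart in PBS tumor 1, which was the highest of the 6 tumors for 32 of 38 genes (84.2%, against 31.8% of all genes). Its log2 CPM exceeded the mean of the other 5 tumors by a median of 0.82 (1.76-fold), while the same median over all genes was 0.01. The excess ran from -0.47 for Psmb2 to 1.5 for Psmb4. Before TMM scaling, the 38 tested genes and the 2 others took 0.789% of the estimated counts in PBS tumor 1. In the other 5 tumors they took 0.515% to 0.625%. Without PBS tumor 1, 30 of the 38 genes were higher in GB2 tumors and 8 lower (48.9% of all genes were lower), the median log2 fold change was 0.06 (range -0.08 to 0.25), and the interval lay within 2-fold for 37, Psme2 being the exception. None then had an unadjusted edgeR p under 0.05 (9.02% of 20529 genes did), with a lowest adjusted p of 0.709. The median SE of the 38 genes went from 0.27 to 0.13 when this tumor was left out.

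**Figure D1:**
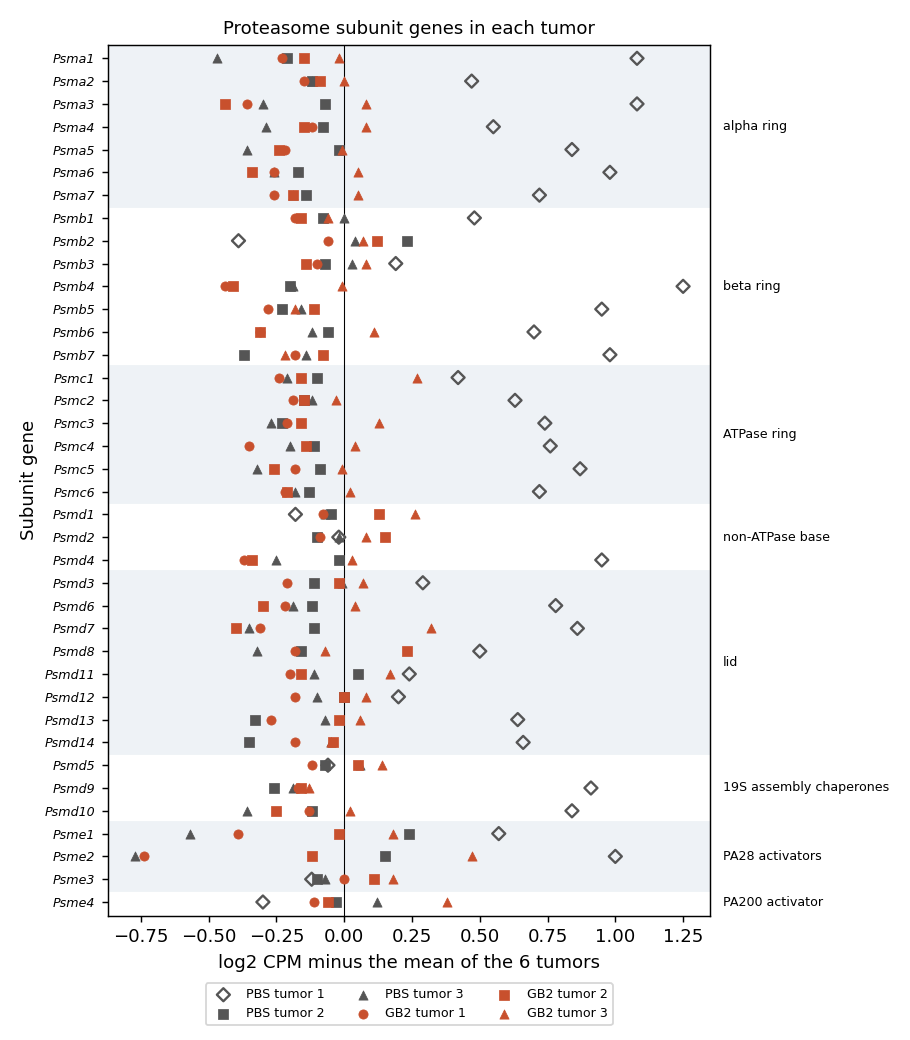
Level of the 38 tested proteasome genes in each tumor, as log2 CPM minus the mean of the 6 tumors (x axis), by subunit group (y axis). Open diamonds are PBS tumor 1, which lies to the right of the other 5 tumors for 32 genes and to their left for Psmb2, Psmd1, Psme3 and Psme4.

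**Figure D2:**
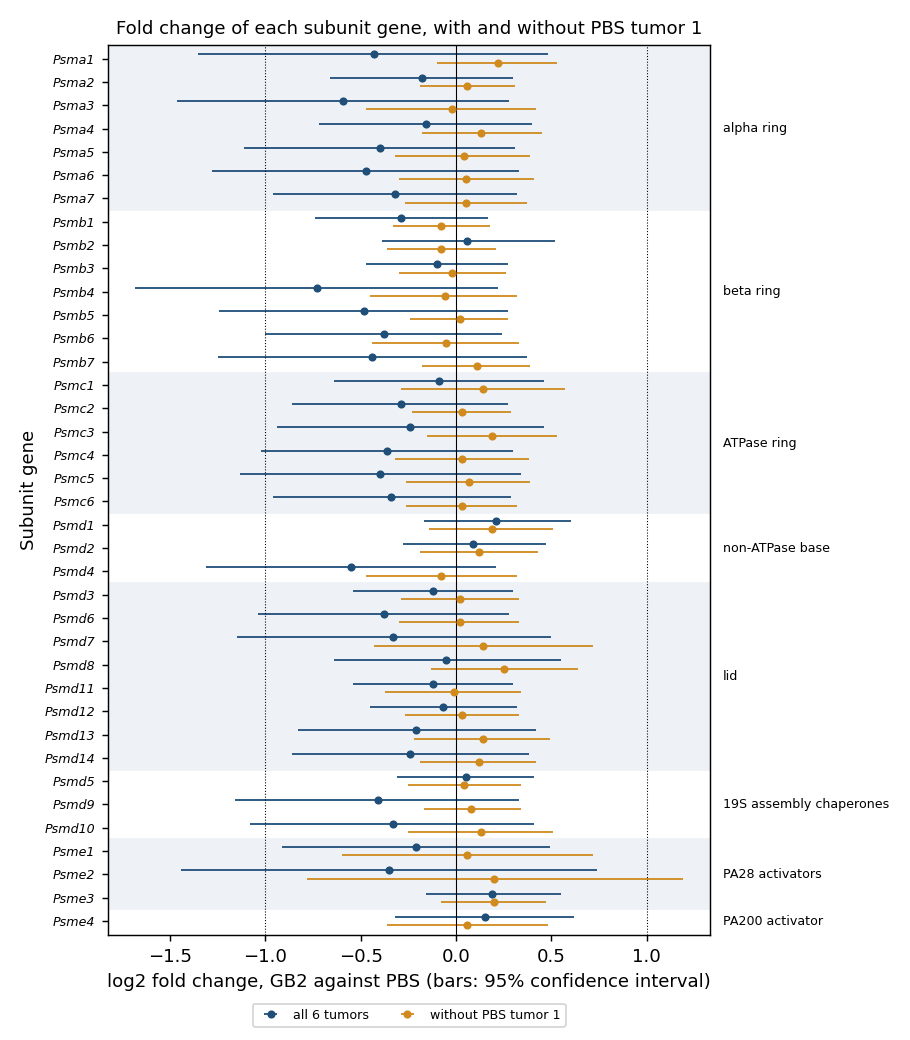
Fitted log2 fold change of each proteasome gene, GB2 against PBS, with 95% confidence intervals (x axis), from all 6 tumors (blue) and without PBS tumor 1 (orange); dotted lines mark 2-fold. The median moves from -0.29 to 0.06 and the intervals narrow without PBS tumor 1.

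In the core particle, 13 of 14 tested genes had a lower fitted value in GB2 tumors, none past the test, with a median log2 fold change of -0.39. All 7 alpha-ring genes, which form the gate and the outer rings, were on the lower side (median -0.40), and so were 6 of 7 beta-ring genes (median -0.38). The summed CPM of the core genes was 3271.7, 1734.7 and 1670.1 in PBS tumors 1 to 3 and 1612.7, 1647.4 and 1894.1 in GB2 tumors 1 to 3. PBS tumor 1 was thus far above a narrow range of 5 tumors in which the groups overlapped. Without it the median was 0.03, with 8 genes higher and 6 lower.

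Among the catalytic subunits, Psmb5 measured 166, 73.3 and 76.7 CPM in PBS tumors and 70.6, 79.3 and 75.9 in GB2 tumors (means 105 ± 52.4 and 75.2 ± 4.38, SD, n = 3). PBS tumor 1 was 2.21-fold above the mean of the others, which spanned a narrow range holding both groups. Its log2 fold change was -0.48 (SE 0.32, 95% interval -1.24 to 0.27, edgeR adjusted p = 0.776), and 0.02 without PBS tumor 1 (-0.24 to 0.27). Psmb6 stood at 165, 97.5 and 93.7 CPM in PBS tumors and 81.9, 81.9 and 110.0 in GB2 tumors. Here GB2 tumor 3 was above PBS tumors 2 and 3, and the groups overlapped. The log2 fold change was -0.38 (SE 0.26, -1.0 to 0.24, edgeR adjusted p = 0.781), and -0.05 without PBS tumor 1. For Psmb7 the levels were 292, 114 and 135 CPM in PBS tumors and 131, 140.0 and 127 in GB2 tumors. All 3 GB2 tumors lay between the 2 extremes of the PBS group, and the log2 fold change was -0.44 (SE 0.35, -1.25 to 0.37, edgeR adjusted p = 0.798) or 0.11 without PBS tumor 1.

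Psmb4, a structural beta subunit, had the lowest fitted value of the core. Its CPM was 451, 165 and 167 in PBS tumors and 140.0, 143 and 188 in GB2 tumors (means 261 ± 165 and 157 ± 26.9, SD, n = 3). The level in PBS tumor 1 was 2.83-fold the mean of the others, the widest such gap of the 38 genes, while GB2 tumor 3 was above both other PBS tumors. The log2 fold change of -0.73 (SE 0.41, -1.68 to 0.22, edgeR adjusted p = 0.757) became -0.06 without that tumor. Psma3, an alpha-ring subunit, followed with 269, 121 and 103 CPM in PBS tumors and 98.9, 93.8 and 135 in GB2 tumors. Groups again overlapped through GB2 tumor 3, and the log2 fold change was -0.59 (SE 0.37, edgeR adjusted p = 0.767), or -0.02 without PBS tumor 1.

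At the other end of the core, Psmb2 was the single gene with a higher fitted value. It measured 67.8, 105 and 91.5 CPM in PBS tumors and 85.6, 96.9 and 93.3 in GB2 tumors, so that PBS tumor 1 was here the lowest tumor and PBS tumor 2 the highest. The log2 fold change of this beta-ring gene was 0.06 (SE 0.20, -0.39 to 0.52, edgeR adjusted p = 0.938), and -0.08 without PBS tumor 1. Psmb3, its neighbour in the beta ring, ran at 144, 120.0 and 129 CPM in PBS tumors and 118, 115 and 134 in GB2 tumors. PBS tumor 1 exceeded the rest by 1.17-fold only, and the log2 fold change was -0.10 (SE 0.16, edgeR adjusted p = 0.889), or -0.02 without PBS tumor 1. Psma4 had 204, 132 and 114 CPM in PBS tumors and 128, 126 and 148 in GB2 tumors, with a log2 fold change of -0.16 (SE 0.24, edgeR adjusted p = 0.883), or 0.13 without PBS tumor 1. Each of these 3 genes thus had overlapping groups.

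The 2 untested core genes are tissue-specific variants, Psma8 of the testis and Psmb11 of the thymic cortex. Psma8 had 0 estimated counts in 5 tumors and 19 in GB2 tumor 3. Psmb11 had 4, 0 and 0 counts in PBS tumors and 8, 0 and 11 in GB2 tumors. Both were near the floor of these libraries.

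In the regulatory particles, 19 of 24 genes had a lower fitted value in GB2 tumors, none past the test, with a median log2 fold change of -0.22 (0.08 without PBS tumor 1, with 22 higher and 2 lower). The 5 on the higher side were Psmd1, Psmd2, Psmd5, Psme3 and Psme4. Within the 19S particle the 6 ATPase-ring genes had a median of -0.31 and the 8 lid genes, which include the deubiquitinase Psmd14, a median of -0.17, and all 14 of these were on the lower side. The non-ATPase base was divided, with the scaffolds Psmd1 and Psmd2 higher and the ubiquitin receptor Psmd4 lower. Summed CPM of the 24 genes was 5362.2, 3569.3 and 3451.2 in PBS tumors and 3362.1, 3715.7 and 4131.8 in GB2 tumors. PBS tumor 1 was again highest, but GB2 tumors 2 and 3 were above both other PBS tumors.

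The lowest fitted values among regulatory genes were those of Psmd4, Psmd9 and Psmc5. Psmd4 had 334, 170.0 and 145 CPM in PBS tumors and 133, 136 and 175 in GB2 tumors, and the groups overlapped. Its log2 fold change was -0.55 (SE 0.33, -1.31 to 0.21, edgeR adjusted p = 0.759), or -0.08 without PBS tumor 1. Psmd9, an assembly chaperone of the ATPase ring, had 90.7, 40.4 and 42.3 CPM in PBS tumors and 42.8, 43.3 and 44.2 in GB2 tumors. The 3 GB2 tumors were above both other PBS tumors, so that a log2 fold change of -0.41 (SE 0.32, edgeR adjusted p = 0.796) became 0.08 without PBS tumor 1. Psmc5, an ATPase, had 393, 202 and 172 CPM in PBS tumors and 190.0, 180.0 and 214 in GB2 tumors. These overlapped too, with a log2 fold change of -0.40 (SE 0.31, edgeR adjusted p = 0.799), or 0.07 without PBS tumor 1.

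The highest fitted values belonged to Psmd1, Psme3 and Psme4. Psmd1, the large scaffold of the 19S base, measured 189, 207 and 204 CPM in PBS tumors and 204, 235 and 256 in GB2 tumors. GB2 tumors 2 and 3 were above all PBS tumors and GB2 tumor 1 was not, and the log2 fold change was 0.21 (SE 0.16, -0.17 to 0.60, edgeR adjusted p = 0.796). Psme3, the nuclear activator PA28 gamma, measured 212, 214 and 220.0 CPM in PBS tumors and 229, 249 and 261 in GB2 tumors (means 215 ± 4.09 and 246 ± 15.9, SD, n = 3). Every GB2 tumor was above every PBS tumor, a separation found upward in 8.61% of all genes, and the log2 fold change was 0.19 (SE 0.15, -0.16 to 0.55, edgeR adjusted p = 0.799), or 0.20 without PBS tumor 1. Psme4, the activator PA200, had 92.2, 111 and 123 CPM in PBS tumors and 105, 109 and 147 in GB2 tumors. Its groups overlapped except for GB2 tumor 3, the highest, and the log2 fold change was 0.15 (SE 0.20, -0.32 to 0.62, edgeR adjusted p = 0.869), or 0.06 without PBS tumor 1.

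Psme1 and Psme2, the alpha and beta chains of the cytoplasmic PA28 cap, differed from the other members in how they varied. Psme1 had 107, 85.4 and 48.8 CPM in PBS tumors and 55.3, 71.2 and 81.9 in GB2 tumors. Psme2 had 67.1, 37.2 and 19.7 in PBS tumors and 20.1, 30.9 and 46.4 in GB2 tumors. Both were lowest in PBS tumor 3, then GB2 tumor 1, then GB2 tumor 2, and both spread across each group rather than between them. Over the 5 tumors other than PBS tumor 1, Psme1 ranged over 0.81 log2 units (1.75-fold) and Psme2 over 1.24 (2.36-fold), against 0.13 to 0.72 for the other 36 genes (median 0.33) and a median of 0.72 over all genes. Their log2 fold changes were -0.21 (SE 0.30, edgeR adjusted p = 0.878) and -0.35 (SE 0.47, -1.44 to 0.74, edgeR adjusted p = 0.870), and 0.06 and 0.20 without PBS tumor 1. Psme2 has a near-identical copy, Psme2b, with 22.0, 9.14 and 4.41 CPM in PBS tumors and 5.43, 7.09 and 9.04 in GB2 tumors, so how reads were divided between the copies is uncertain. Psma5 likewise has Psma5-ps, with 3.21 to 9.09 CPM.

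The inducible subunits had the same low tumors: Psmb8 was at 23.2, 26.3 and 1.19 CPM in PBS tumors and 5.80, 6.63 and 16.5 in GB2 tumors, and Psmb9 at 23.4, 28 and 0.721 and at 2.98, 10.9 and 31.4. Psmb10 was at 39.0, 28.4 and 16.7 CPM in PBS tumors and 14.7, 19.8 and 37.9 in GB2 tumors, and none of the 3 had an unadjusted edgeR p under 0.05 (lowest adjusted p = 0.853).

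**Figure D3:**
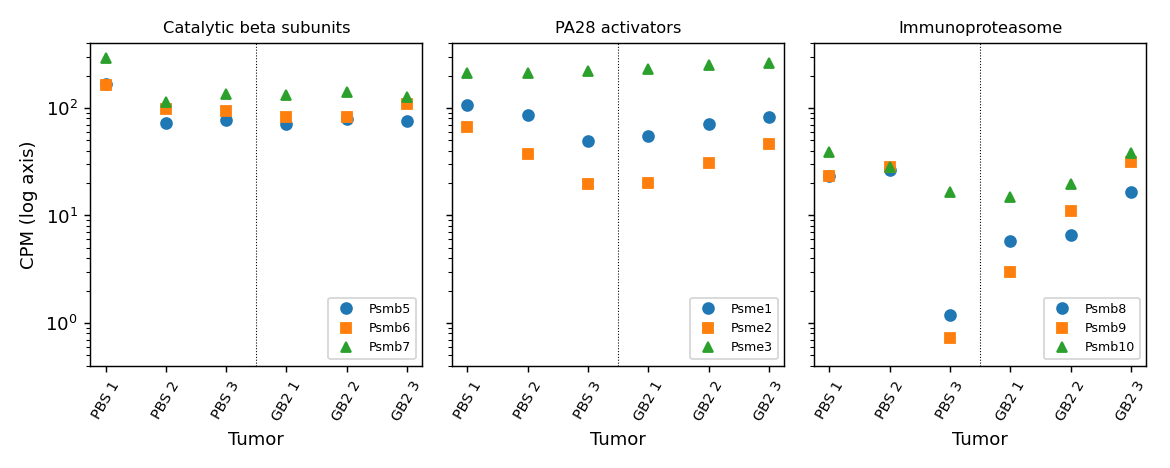
CPM of the constitutive catalytic subunits, the PA28 activators and the immunoproteasome subunits in each tumor (x axis), on a log axis. Psme1, Psme2, Psmb8 and Psmb9 dip in PBS tumor 3 and GB2 tumor 1, where Psme3 does not.

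Core against regulatory genes, the median log2 fold change differed by -0.17, and by -0.05 without PBS tumor 1. The ratio of summed core to summed regulatory CPM was 0.610, 0.486 and 0.484 in PBS tumors and 0.480, 0.443 and 0.458 in GB2 tumors. All 3 GB2 tumors were below all 3 PBS tumors, although GB2 tumor 1 was 0.480 beside 0.484 in PBS tumor 3. Among single genes, groups did not overlap, in either direction, for 15.3% of all tested genes. How often ratios of other gene sums separate the groups was not tested. Against the 19S genes alone the ratio was 0.670, 0.556 and 0.549 in PBS tumors and 0.546, 0.506 and 0.527 in GB2 tumors, and on summed FPKM, the deposited level per transcript length, 0.808, 0.689 and 0.699 against 0.680, 0.640 and 0.646. These ratios share the same core genes, so they are not separate results. They weigh abundant genes most, and no p is given for them because they are sums over chosen members. In the median over genes, core minus regulatory deviations were 0.15, 0.01 and 0.01 in PBS tumors and -0.03, -0.03 and -0.05 in GB2 tumors. Outside PBS tumor 1 these deviations lay between -0.05 and 0.01.

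Levels per length were compared in FPKM. Means over the 6 tumors ran from 6.57 for the chaperone Psmd9 to 152 for the ATPase Psmc5, a 23.2-fold span. Core genes were more even, from 32.7 for Psma2 to 125 for Psma6, or 3.81-fold, with a median of 54.9 beside 42.8 for the regulatory genes. In CPM, the alpha-ring gene Psma2 had 174, 115 and 115 in PBS tumors and 113, 118 and 125 in GB2 tumors (log2 fold change -0.18, SE 0.21, edgeR adjusted p = 0.851, 0.06 without PBS tumor 1). Psma6, also of the alpha ring, had 305, 138 and 129 CPM in PBS tumors and 129, 122 and 160.0 in GB2 tumors (log2 fold change -0.47, SE 0.34, edgeR adjusted p = 0.789, 0.05 without PBS tumor 1). PBS tumor 1 was the highest tumor for both, and GB2 tumor 3 was second, so the groups overlapped. The assembly chaperones Psmd5, Psmd9 and Psmd10, which leave the finished particle, were the least abundant group, with a median FPKM of 7.21, and Psme4 stood at 13.1. ATPase-ring genes had the highest group median, 89.2.

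**Figure D4:**
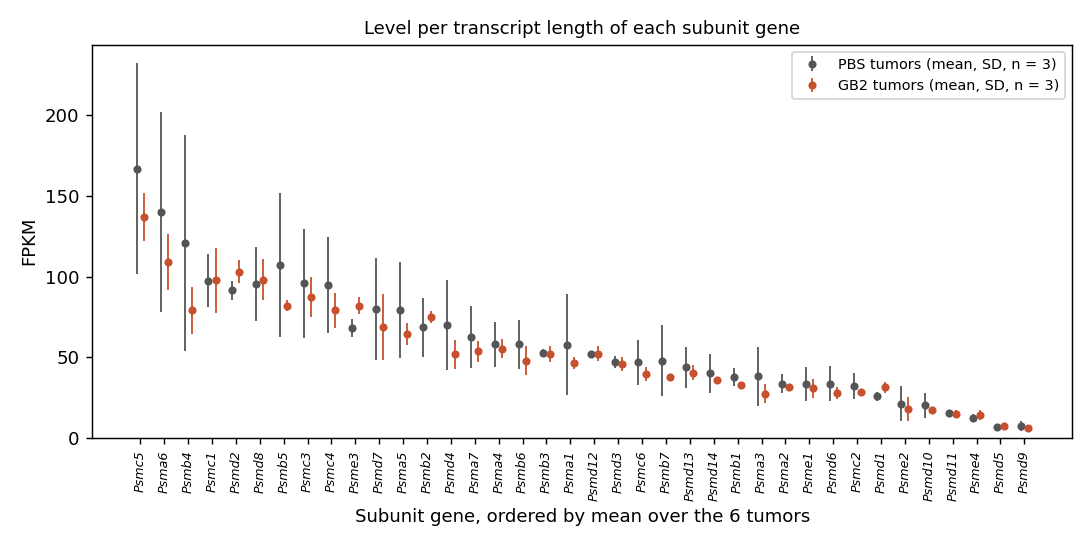
Mean FPKM of each tested proteasome gene in PBS and GB2 tumors (y axis, bars SD, n = 3), ordered by the mean of the 6 tumors. Psmc5, Psma6 and Psmb4 have wide PBS bars, with PBS tumor 1 the highest tumor for each, and the bars of the groups overlap for most genes.

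Transcript length went with the excess in PBS tumor 1 for regulatory genes. Across the 24, the excess fell with the length of the longest coding transcript (Spearman -0.72, Pearson on log10 length -0.79), while across the 14 core genes, which are mostly short, Spearman was 0.30 and Pearson 0.21. Over 14995 genes with a length Spearman was -0.30 and Pearson -0.24. The points share 1 library and genes are not independent, so these are descriptions. For genes of at most 1000 bases the median excess of all 832 was 0.75, beside 0.84 for the 5 members of that length. From 1000 to 1500 bases it was 0.50 for all genes and 1.01 for the 12 members, from 1500 to 2000 bases 0.26 and 0.76 (10 members), and from 2000 to 3000 bases 0.04 and 0.46 (8 members). The 3 longer members were below the mean of the other tumors in PBS tumor 1: Psmd1 at -0.22, Psmd5 at -0.07 and Psme4 at -0.36. In each class up to 3000 bases the median of the members was thus above that of all genes. Of the members in those classes, Psmb2, Psmb3, Psmd2, Psmd12 and Psme3 were below the median of their class. Among the longer members, Psmd1 and Psme4 were also below the median of all genes in their class (-0.14 and -0.34), and Psmd5 was above it (-0.23). Of 6 proliferation markers, 4 were highest in PBS tumor 1 (Top2a at 855 CPM there and 358 to 605 elsewhere), while Mcm2 was lowest there (214 CPM, against 357 to 664). The part of length and of proliferation in the excess was not tested.

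**Figure D5:**
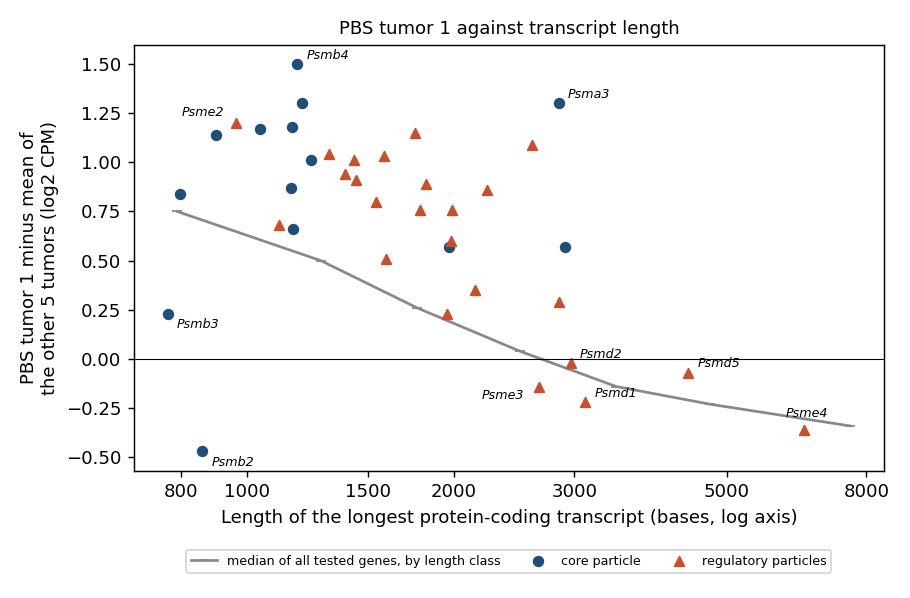
Excess of PBS tumor 1 over the mean of the other 5 tumors (y axis, log2 CPM) against the length of the longest protein-coding transcript (x axis, bases, log axis), for core genes (circles) and regulatory genes (triangles). The grey line is the median of all tested genes by length class, and most members up to 3000 bases lie above it.

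Genes around the proteasome were counted in lists. No gene of any of these lists had an unadjusted edgeR p under 0.05. The 5 chaperones of core assembly (Pomp, Psmg1 to Psmg4) all had lower fitted values in GB2 tumors, median log2 fold change -0.53 (0.03 without PBS tumor 1, with 3 higher and 2 lower), with summed CPM of 488.89 in PBS tumor 1 and 165.05 to 203.65 elsewhere. Pomp, the maturation factor of the beta ring, had 285, 96.5 and 81.5 CPM in PBS tumors and 86.7, 86.6 and 100 in GB2 tumors (log2 fold change -0.76, edgeR adjusted p = 0.759, 0.05 without PBS tumor 1). Psmg2, a chaperone of the alpha ring, had a log2 fold change of -0.49 (edgeR adjusted p = 0.762), or -0.06 without PBS tumor 1. PBS tumor 1 was the highest tumor for 4 of these 5 chaperones, the exception being Psmg4, with 12.4 CPM there and 12.9 in PBS tumor 2.

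Of 9 partners and regulators of the 19S particle, 8 were tested, 3 with higher and 5 with lower fitted values (median -0.08, and 0.05 without PBS tumor 1). Sem1, the small lid subunit outside the Psm naming, measured 328, 98.1 and 89.6 CPM in PBS tumors and 74.2, 78.3 and 84 in GB2 tumors. Every GB2 tumor was below every PBS tumor, as for 6.68% of all genes, and the log2 fold change was -1.13 (SE 0.49, edgeR adjusted p = 0.724), or -0.24 without PBS tumor 1. The ubiquitin ligase Ube3c, which works at the proteasome, had a log2 fold change of 0.43 (edgeR adjusted p = 0.771), or 0.20 without PBS tumor 1. Ubiquitin and E1 genes were higher in 4 and lower in 2 (median 0.14, and 0.0 without PBS tumor 1), with the ribosomal fusion gene Rps27a at -0.64 (edgeR adjusted p = 0.761), or -0.04 without PBS tumor 1. The 10 shuttle and unfoldase genes had a median of 0.04 (0.12 without PBS tumor 1, with 8 higher and 2 lower), with the Vcp cofactors Nploc4 at 0.34 (edgeR adjusted p = 0.789, 0.13 without PBS tumor 1) and Ufd1 at -0.19 (edgeR adjusted p = 0.799, groups not overlapping).

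The list on transcription of proteasome genes had 4 higher and 4 lower (median 0.01), or 3 higher and 5 lower without PBS tumor 1 (median -0.04). Nfe2l2, a relative of Nfe2l1 that responds to oxidants, had 70.1, 91.4 and 101 CPM in PBS tumors and 138, 147 and 94.4 in GB2 tumors. GB2 tumors 1 and 2 were above all PBS tumors and GB2 tumor 3 was not, and the log2 fold change was 0.53 (SE 0.23, edgeR adjusted p = 0.725). Its partner Maff was at -0.45 (edgeR adjusted p = 0.759). Nfe2l1 itself was at -0.06 (SE 0.21, edgeR adjusted p = 0.944), or -0.16 without PBS tumor 1.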

How the data were processed

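RNA-seq of 6 whole tumors was analysed, 3 per group. Per the labels, RNA with a RIN above 7.0 was selected for poly(A), made into strand-marked libraries and read as 150-base pairs. The submitters' processing notes name cutadapt 1.9, HISAT2 2.2.1, StringTie 2.1.6, DESeq2, edgeR and mm10. The deposited table holds estimated counts per gene, whole numbers whose worth in read pairs is not settled (values of 4 occurred 7017 times, of 3 2984 and of 5 2017 times), and FPKM values, which the authors computed per length and depth. Positions in the table matched GRCm38 for 0 of the 40 members, so none are printed from it. Genes were kept by edgeR's filter (minimum count 10) and tested with edgeR 4.0.16 (quasi-likelihood, TMM, R 4.3.3), a pipeline tested on simulated data. Alternatives used DESeq2 1.42.0 and limma 3.58.1 on log2(FPKM + 1) and log2(FPKM + 0.1), with means of at least 0.5 FPKM. Log2 CPM used a prior count of 2. Lengths are of the longest coding transcript in GENCODE. The common biological coefficient of variation was 40.5%, which limits the precision with 3 tumors a group.

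Members and gene lists were chosen with earlier results of these data known. Values in every tumor are given for the catalytic and Psme subunits, the 3 highest and 3 lowest fold changes and the extremes of FPKM in each particle, and untested members. From each list, genes with an unadjusted p under 0.05 were to be named, otherwise the 2 with the smallest p. Psma8 and others without a RefSeq promoter entry were not searched for motifs. Some items are not reported here.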

Additional observations from a re-analysis of the deposited data

How the results depend on the processing

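Leaving out each tumor in turn, the core median log2 fold change ran from -0.56 to 0.03, the regulatory median from -0.39 to 0.08 and their difference from -0.23 to -0.05, with the upper end of each reached without PBS tumor 1. The count of members with an unadjusted p under 0.05 was 0 to 2, the 2 being Psmd4 (-0.76) and Psmb4 (-0.96) without PBS tumor 3 (edgeR adjusted p = 0.469 each, the lowest of any alternative), where 10.6% of all 20695 genes were under that limit. Over all 38 tested members, 32 had a lower fitted value with every tumor kept, and 8 without PBS tumor 1. Direction was followed fit by fit for the 18 named members only (ranges are over the tumors left out). Without PBS tumor 1 it turned for Psma2 (-0.28 to 0.06), Psma4 (-0.32 to 0.13), Psma6 (-0.68 to 0.05) and Psmb2 (-0.08 to 0.21). It turned there too for Psmb5 (-0.68 to 0.02), Psmb7 (-0.68 to 0.11) and Psmc5 (-0.61 to 0.07). The same held for Psmd9 (-0.61 to 0.08), Psme1 (-0.47 to 0.06) and Psme2 (-0.70 to 0.20). Without GB2 tumor 3 the direction turned for Psme4 (-0.02 to 0.25). Under the 9 other fits, all 162 values of the 18 named members kept their direction, but limma on log2(FPKM + 1) gave a core median of -0.21 and a regulatory median of -0.08, beside -0.39 and -0.22 on the counts. The core minus regulatory difference was -0.10 with limma on log2(FPKM + 1) without a filter, and the cause was not tested. Over all genes, DESeq2 called 385 where edgeR called 0. Deviations of same-numbered tumors from their group means had correlations of 0.0313, 0.154 and -0.245. The labels do not say whether the numbers pair the tumors, and with 3 tumors a group these correlations cannot settle it. With the replicate number as a block, 0 members passed either limit, the core and regulatory medians were -0.29 and -0.16 and their difference -0.13, and 957 genes had an unadjusted p under 0.05 (1360 without it). With 3 tumors a group, smaller changes than the intervals given could not be resolved.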
